A study of Mus musculus with 3 samples.

Results

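Mast cells are tissue-resident cells of the blood lineage that store proteases, histamine and proteoglycans in granules and release them when IgE on their surface meets antigen. They depend on the receptor KIT, and those of skin, muscle and other connective tissue carry chymases, tryptases and carboxypeptidase A3. The 8 genes described here mark these cells by role: the granule proteases Cma1, Mcpt4, Tpsb2 and Cpa3, the surface receptors Kit, Fcer1a and Ms4a2, and Hdc, the enzyme that makes histamine from histidine. Members were every non-control probe on the arrays whose gene name was one of these symbols. That rule found 7 of the 8 genes, among 27957 named on the array, on 9 of 41169 probes. No probe was named Tpsb2, but the probe named Mcpt6, the older name of this tryptase, carries an accession that RefSeq pairs with Tpsb2; its values are given as an addition and are in no count of members.

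RNA came from muscle of male mice aged 6 weeks, and each of the 3 groups was followed for 14 days. The first group swam and ate food containing 0.5% Chlorella powder, the second swam on normal food, and the third ate normal food without swimming. RNA of 10 mice was pooled before labelling, and each pool was hybridised to 1 single-colour Agilent array, so the spread between mice was not measured and there is no replicate check. No test between groups was possible: the ± values below are the scanner software's own error for a spot, which was about 10.0% of the signal, and the 95% limits are made from it alone. The muscle sampled and the mouse strain are not given in the sources used here.

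Signals are given as a percentage of each array's 75th percentile over all probes, and ratios are log2 ratios of these scaled signals. A gene counted as different when it was at least 2-fold apart and well above background on both arrays. Of the 41169 probes, 23448 were well above background on the Chlorella array, 24857 on the swimming normal food array and 23841 on the nonswimming array, and none was saturated. All 10 skeletal muscle markers examined, among them Acta1 and Ckm, were measured on all arrays. Their median log2 ratio was 0.34 for Chlorella over normal food in swimming mice and -0.10 for swimming over nonswimming. All 10 ratios were positive in the comparison of foods and negative in that of swimming. In swimming over nonswimming 1 of the 10, Mb (-1.04), was at least 2-fold lower, against 1.08% of all genes. Markers of blood cells differed much more between the arrays. The 7 measured neutrophil markers all differed by more than 2-fold, with median ratios of -6.82 for Chlorella over normal food in swimming mice and 4.08 for swimming over nonswimming. Of all measured genes, 4.86% were at least 2-fold lower in the first of these comparisons and 5.14% higher in the second. In pooled muscle RNA, fewer cells of a type and less RNA per cell cannot be told apart.

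The stretches upstream of 3 protease genes that were lowest on the Chlorella array, and of Hdc, are shown because GATA factors, chiefly GATA2, are known regulators of mast cell genes. Each runs 5′ to 3′ from 250 bases before to 50 bases after the gene's start in RefSeq (GRCm38.p6), on the gene's strand, and capitals mark the letters GATAA or their reverse complement.
Cma1: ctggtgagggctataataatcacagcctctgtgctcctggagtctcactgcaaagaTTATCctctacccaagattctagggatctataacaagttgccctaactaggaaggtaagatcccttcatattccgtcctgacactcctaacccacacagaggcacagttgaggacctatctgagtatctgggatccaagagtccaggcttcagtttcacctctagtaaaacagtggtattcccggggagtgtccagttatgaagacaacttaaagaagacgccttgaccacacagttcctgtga
Mcpt4: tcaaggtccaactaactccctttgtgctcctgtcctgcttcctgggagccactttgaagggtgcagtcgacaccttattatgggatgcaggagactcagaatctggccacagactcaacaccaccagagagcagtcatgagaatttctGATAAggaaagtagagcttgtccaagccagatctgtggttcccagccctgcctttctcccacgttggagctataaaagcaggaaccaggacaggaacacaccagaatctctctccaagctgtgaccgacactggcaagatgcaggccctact
Cpa3: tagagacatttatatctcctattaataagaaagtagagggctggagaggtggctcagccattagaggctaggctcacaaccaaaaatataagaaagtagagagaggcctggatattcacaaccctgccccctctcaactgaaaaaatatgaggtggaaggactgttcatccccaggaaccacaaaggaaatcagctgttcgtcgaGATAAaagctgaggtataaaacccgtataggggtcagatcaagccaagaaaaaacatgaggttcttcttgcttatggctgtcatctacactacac
Hdc: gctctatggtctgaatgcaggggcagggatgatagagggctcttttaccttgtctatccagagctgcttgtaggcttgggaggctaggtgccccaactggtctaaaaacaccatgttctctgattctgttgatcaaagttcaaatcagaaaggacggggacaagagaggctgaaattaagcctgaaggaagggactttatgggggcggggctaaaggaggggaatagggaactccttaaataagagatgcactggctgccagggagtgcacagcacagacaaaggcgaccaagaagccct
These windows lie on the minus strand at chr14:55944626-55944925 (Cma1), chr14:56062261-56062560 (Mcpt4), chr3:20242132-20242431 (Cpa3) and chr2:126618629-126618928 (Hdc). GATAA stands 45 bases before the start of Cpa3 and 102 bases before that of Mcpt4, and its reverse complement 194 bases before that of Cma1. The Hdc window holds none, though Hdc also read lowest on the Chlorella array. Searched on both strands, GATAA occurred in 5 of the 7 member promoters available, against 25.4% of all 32851 promoters. The 5 include Fcer1a, whose signal was alike on all arrays, and Ms4a2, which was not well above background on any. CATGTG, a form of the E-box that MITF binds, occurred in 1 of 7, the promoter of Fcer1a, against 14.2% of all promoters. TTCNNNGAA, the core that STAT5 binds, was in none of the 7, against 8.30% of all. These are matches of letters and not measured binding.

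The chymases Cma1 and Mcpt4 were lowest on the Chlorella array. Cma1 encodes mast cell chymase, which converts angiotensin I and cuts matrix proteins. Its brighter probe, at chromosome 14, 50808970 to 50809029 in the files' coordinates (build not given in the sources used here), read 82.9% of the 75th percentile on the Chlorella array, 167% on the swimming normal food array and 219% on the nonswimming array. A second probe, at 50810007 to 50811066, covers 1060 bases of genome and so crosses an intron. It read 17.0%, 36.7% and 49.8% on the Chlorella, swimming normal food and nonswimming arrays. Both Cma1 probes thus gave the same order of the arrays, with Chlorella lowest and nonswimming highest.

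For Cma1 the log2 ratio of Chlorella over normal food in swimming mice was -1.01 ± 0.20 at the brighter probe (95% limits -1.41 to -0.61) and -1.11 ± 0.21 at the other. Chlorella swimming over nonswimming gave -1.40 ± 0.20 and -1.55 ± 0.21, or 2.64-fold and 2.92-fold lower with Chlorella. Swimming over nonswimming on normal food gave -0.40 ± 0.20 and -0.44 ± 0.21. This gap was just inside its 95% scanner limit at the brighter probe (0.395 against 0.400) and just past it at the dimmer one (0.438 against 0.403).

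Mcpt4 encodes mast cell protease 4, the other chymase of connective tissue mast cells in mice. Its brighter probe, at chromosome 14, 50927105 to 50927164, read 62.3% on the Chlorella array, 114% on the swimming normal food array and 148% on the nonswimming array. Its second probe, at 50927256 to 50927314, read 23.4%, 41.5% and 52.3% on the same arrays. The order was that of Cma1 at both probes. Chlorella over normal food in swimming mice was -0.87 ± 0.20 and -0.83 ± 0.21, short of 2-fold, and Chlorella swimming over nonswimming was -1.25 ± 0.20 and -1.16 ± 0.21, or 2.38-fold and 2.24-fold lower with Chlorella. Swimming over nonswimming on normal food was -0.38 ± 0.20 and -0.33 ± 0.21, within the scanner limits. The second probe shares a listed transcript with the probe of the near relative Mcpt9, so its signal could hold both, although the Mcpt9 probe was not well above background on any array.

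The 2 probes of each chymase differed little in their ratios. Their gap was 0.10 for Cma1 and 0.04 for Mcpt4 in Chlorella over normal food in swimming mice, where 3904 genes with 2 measured probes had a median gap of 0.14.

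The tryptase Tpsb2 (mast cell protease 6), read through the probe named Mcpt6 at chromosome 17, 23550604 to 23550663, had 15.5% on the Chlorella array, 24.0% on the swimming normal food array and 38.0% on the nonswimming array. It kept the order of the chymases, with nearly equal steps between neighbours. Chlorella over normal food in swimming mice was -0.63 ± 0.21, swimming over nonswimming on normal food -0.66 ± 0.21, and Chlorella swimming over nonswimming -1.29 ± 0.21, or 2.44-fold lower with Chlorella. Both steps were past their 95% scanner limits.

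Cpa3, carboxypeptidase A3, is a metalloprotease stored with the chymases that trims peptides from their carboxyl end. Its probe, at chromosome 3, 19947691 to 19947750, read 38.4% on the Chlorella array, 87.8% on the swimming normal food array and 85.9% on the nonswimming array. The 2 normal food arrays were alike and the Chlorella array was lower than both. Chlorella over normal food in swimming mice was -1.19 ± 0.21 (95% limits -1.60 to -0.79), or 2.29-fold lower, and Chlorella swimming over nonswimming was -1.16 ± 0.21. Swimming over nonswimming was 0.03 ± 0.20.

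Hdc had another order. Its probe, at chromosome 2, 126334633 to 126334692, read 35.2% on the Chlorella array, 69.1% on the swimming normal food array and 44.3% on the nonswimming array. The swimming normal food array was the high one. Chlorella over normal food in swimming mice was -0.97 ± 0.21, just short of 2-fold lower, and swimming over nonswimming was 0.64 ± 0.21 (95% limits 0.24 to 1.04). Chlorella swimming over nonswimming was -0.33 ± 0.21, within its scanner limits (-0.74 to 0.07). Basophils and some myeloid cells also use Hdc.

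Kit, the receptor for stem cell factor, was the one member printed in 10 spots, at chromosome 5, 75074515 to 75074574. It read 19.2% on the Chlorella array, 23.3% on the swimming normal food array and 16.1% on the nonswimming array. The unscaled spot signals had a lowest, median and highest value of 43.3, 46.1 and 48.0 on the Chlorella array (9 spots, 1 flagged spot at 80.7 left out), 63.3, 69.2 and 74.1 on the swimming normal food array, and 40.5, 46.7 and 48.3 on the nonswimming array. No swimming normal food spot overlapped a spot used on either other array, which shows the evenness of printing on these arrays and not the spread between mice.

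Swimming over nonswimming was 0.53 ± 0.21 for Kit (95% limits 0.11 to 0.95). Chlorella over normal food in swimming mice was -0.28 ± 0.21 and Chlorella swimming over nonswimming 0.25 ± 0.22, both within the scanner limits. Kit was therefore not lower on the Chlorella array than on the nonswimming array, where the 4 proteases were.

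The alpha and beta chains of the IgE receptor were dim. Fcer1a, the IgE-binding alpha chain (chromosome 1, 173194818 to 173194877), read 12.2% on the Chlorella array, 11.3% on the swimming normal food array and 12.2% on the nonswimming array. The 3 levels did not differ beyond the scanner error: Chlorella over normal food was 0.11 ± 0.22, with 95% limits from -0.33 to 0.55, so a 2-fold gap lies outside these limits. Ms4a2, the beta chain (chromosome 19, 11297411 to 11297470), was not well above background on any array, with unscaled signals of 1.89 on the Chlorella array, 2.41 on the swimming normal food array and 4.47 on the nonswimming array. The scanner error on these ran from 45.8% to 99.6% of the signal, so no ratio is given for it.

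**Figure D1:**
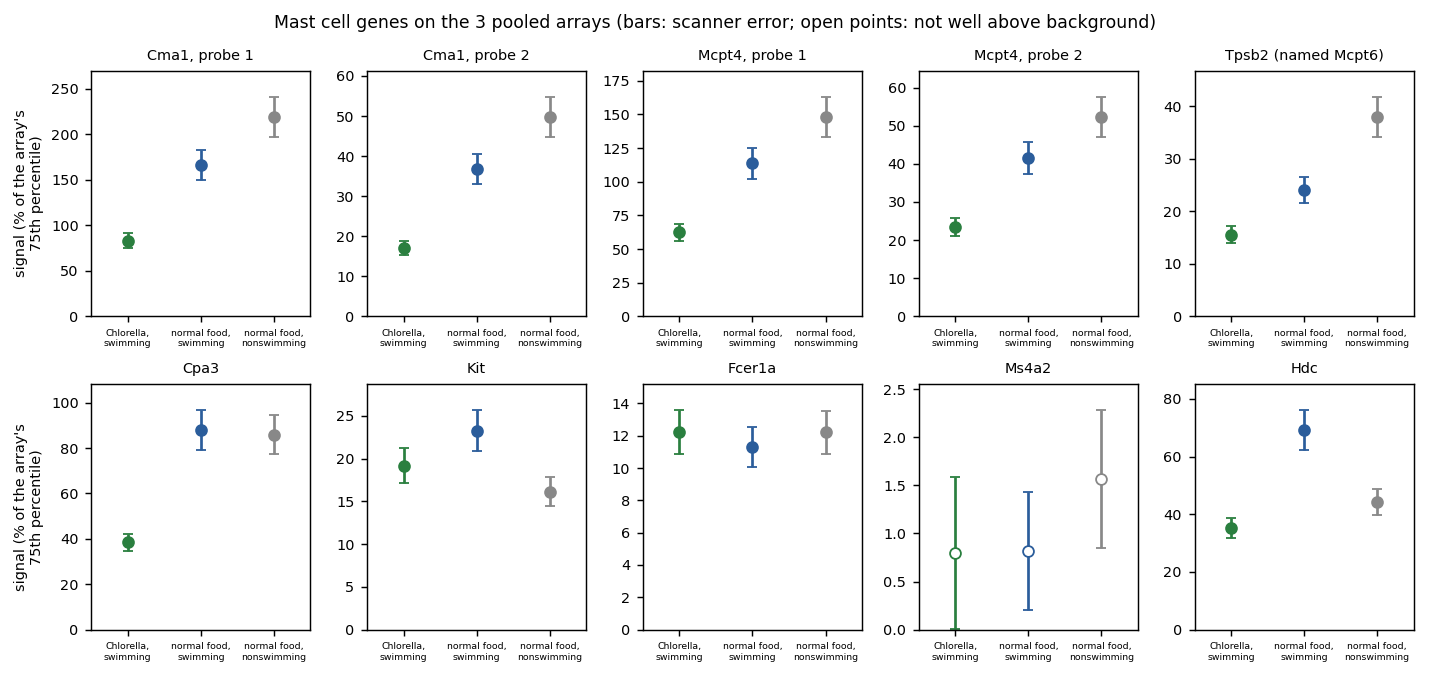
Signal of each member probe (vertical axes, percent of the array's 75th percentile, each from 0) on the Chlorella swimming, normal food swimming and normal food nonswimming arrays, with bars for the scanner error and open points where a probe was not well above background. Both Cma1 and both Mcpt4 probes, Tpsb2 and Cpa3 are lowest on the Chlorella array. Hdc and Kit are highest on the swimming normal food array, but Kit's gap to the Chlorella array is within the scanner limit. Fcer1a lies between 11.3% and 12.2% on all 3.

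Counted together, 2 of the 6 measured members, Cma1 and Cpa3, were at least 2-fold lower with Chlorella than with normal food in swimming mice, where 4.86% of 15611 measured genes were, and none was higher (1.4% of all genes). The member median was -0.92, against 0.08 over all genes, 90% of which lay between -0.98 and 0.62. For Cpa3, 3.77% of all genes had a lower ratio, for Cma1 4.81%, for Hdc 5.04% and for Mcpt4 5.79%, while 17.5% did for Kit and 55.4% for Fcer1a.

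In Chlorella swimming over nonswimming, which shares 1 array with each of the other comparisons, 3 of 6 (Cma1, Mcpt4 and Cpa3) were at least 2-fold lower, against 1.48% of 15440 genes, and none was higher (2.1%). With normexp, a model-based background correction that adds an offset of 50 and so shrinks the ratios of dim probes, Mcpt4 was -0.97 and Cpa3 -0.79, short of 2-fold, and Cma1 -1.14. The 3 stood further out here than in the comparison of foods: 0.41% of all genes had a lower ratio than Cma1, 0.67% than Mcpt4 and 0.87% than Cpa3. The member median was -0.75, against 0.04 over all genes.

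In swimming over nonswimming on normal food, none of the 6 was 2-fold apart in either direction, where 5.14% of 15764 genes were higher and 1.08% lower. The member median was -0.04, equal to that of all genes at this rounding. The members spread to both sides: 10.2% of genes lay below Cma1 and 10.9% below Mcpt4, but 89.7% below Kit and 91.4% below Hdc.

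**Figure D2:**
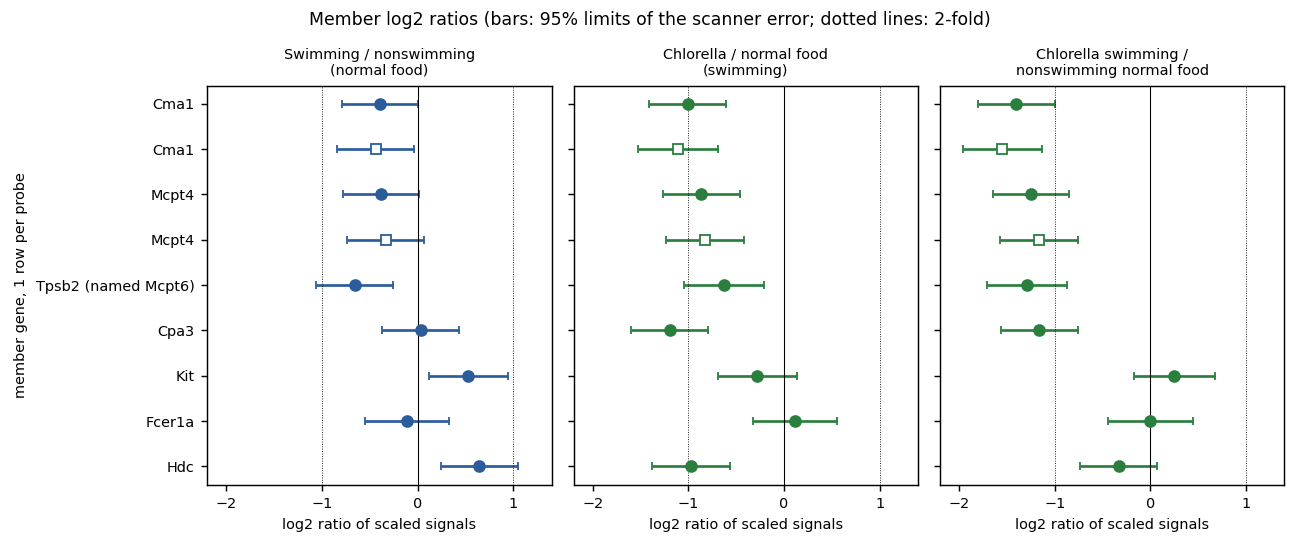
Log2 ratio of scaled signals (horizontal axes) for each member probe in the 3 comparisons, with bars for the 95% limits of the scanner error, dotted lines at 2-fold and open squares for the second probe of a gene. With Chlorella swimming over nonswimming the chymase, tryptase and Cpa3 probes lie between -1.55 and -1.16, while Kit, Fcer1a and Hdc lie between -0.33 and 0.25.

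**Figure D3:**
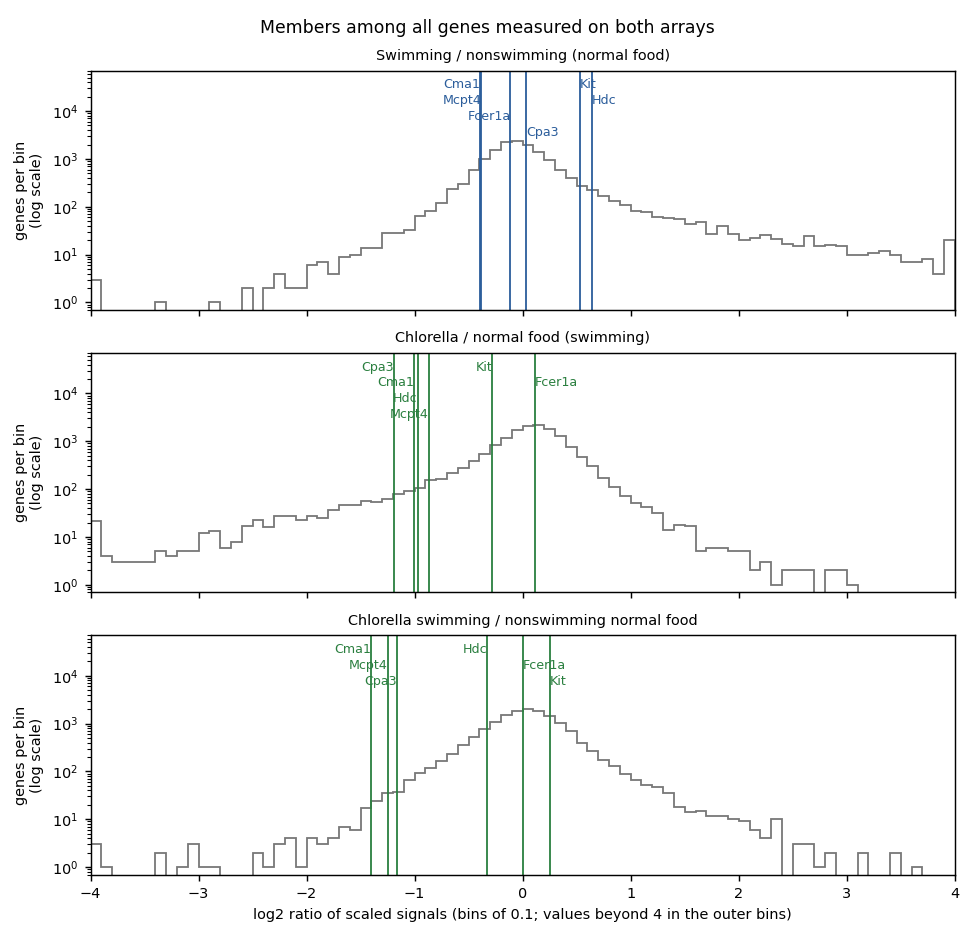
Number of genes (vertical axes, log scale) in bins of 0.1 of the log2 ratio (horizontal axis) in each comparison, with a line at each measured member. Cma1, Mcpt4, Cpa3 and Hdc lie in the left tail for Chlorella over normal food in swimming mice, and Cma1, Mcpt4 and Cpa3 do so for Chlorella swimming over nonswimming.

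The authors' deposited table of log2 values gave nearly the same differences. In it Chlorella minus normal food in swimming mice was -1.08 for Cma1 (second probe), -0.87 for Mcpt4, -1.22 for Cpa3, -0.31 for Kit and 0.09 for Fcer1a. Swimming minus nonswimming in the authors' deposited table was 0.65 for Hdc and 0.54 for Kit.

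Genes were also ranked by how near their pattern over the 3 arrays lay to the members' median pattern. Members were left out, and candidates needed a current gene symbol and a signal well above background on all 3 arrays. Most of the other granule proteases did not pass this filter, so their absence below says nothing about their pattern. Among 10093 candidates, the 5 nearest were Ctso (a cysteine protease of lysosomes), Pld4 (an endolysosomal exonuclease), Cfb (complement factor B), Nnat (neuronatin) and Emp3 (a membrane protein), at distances of 0.077 to 0.080 on the log2 scale. The members' centred median was -0.57 on the Chlorella array, 0.24 on the swimming normal food array and 0.21 on the nonswimming array. With 3 arrays such likeness is common: 113 genes lay within 0.2 of that pattern, and no member itself did, Cpa3 being nearest at 0.32.

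Cma1 and Mcpt4 lie in the chymase cluster on chromosome 14. In the files' coordinates the probes run in the order Cma1, Mcpt1, Mcpt9, Mcpt2, Mcpt4, Mcpt8, Ctsg and Gzmb, from 50808970 to 51126491. Unscaled signals of Ctsg, cathepsin G, a protease of neutrophil primary granules that mast cells can also hold, were 12.2 on the Chlorella array, 1471 on the swimming normal food array and 132 on the nonswimming array. Its ratio was -6.61 ± 0.26 for Chlorella over normal food, -3.17 ± 0.26 for Chlorella swimming over nonswimming and 3.43 ± 0.20 for swimming over nonswimming, and with normexp -4.29, -1.29 and 3.01. Ctsg was lowest on the Chlorella array, as both chymases were. For swimming over nonswimming, Ctsg was higher, while Cma1 and Mcpt4 of the same cluster were lower by gaps near or within their scanner limits.

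Mcpt8, which despite its name marks basophils, was well above background only with swimming on normal food, with signals of 1.53 on the Chlorella array, 22.3 on the swimming normal food array and 1.65 on the nonswimming array. Set against the lowest signal well above background, it was at least 2.87-fold lower with Chlorella than with normal food, and at least 3.35-fold higher with swimming than without. Mcpt2, a mucosal mast cell protease, had its only such signal on the nonswimming array, at 11.6, against 1.33 on the Chlorella array and 1.27 on the swimming normal food array. Set against the same floor, it was at least 2.06-fold lower with swimming than without on normal food, a bound that leaves out the scanner error. Gzmb, granzyme B of killer lymphocytes, had dim signals of 2.39 on the Chlorella array, 11.2 on the swimming normal food array and 10.2 on the nonswimming array, and was at least 1.44-fold lower with Chlorella than with normal food. Mcpt1, the main mucosal chymase, was not well above background on any array.

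Near Tpsb2 on chromosome 17, the tryptase Tpsab1 (mast cell protease 7) had dim signals of 11.9 on the Chlorella array, 9.22 on the swimming normal food array and 20.8 on the nonswimming array. It was lower with swimming than without (-1.22 ± 0.31, but -0.28 with normexp) and its ratio for Chlorella over normal food was 0.68 ± 0.33. Over the 9 other granule proteases, 8 had a probe. Of 3 measured in swimming over nonswimming, 1 was higher and 1 lower, against 5.14% of all genes higher and 1.08% lower. Of 2 measured in each Chlorella comparison, 1 (Ctsg) was lower. Among all genes 4.86% were lower with Chlorella than with normal food, and 1.48% in Chlorella swimming over nonswimming.

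The list of granule matrix and amine genes held no gene 2-fold apart in any comparison (5 measured in swimming over nonswimming and 3 in each other). The list median was 0.06 for Chlorella over normal food in swimming mice and -0.17 for swimming over nonswimming.

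Of the IgE receptor signalling genes, 7 of 12 measured were at least 2-fold lower with Chlorella than with normal food in swimming mice and none was higher (median -1.35, against 4.86% of all genes lower and 1.4% higher). With normexp 2 of the 12, Fcer1g and Plcg2, were still 2-fold lower and the median was -0.48. Fcer1g, the gamma chain shared by Fc receptors of mast cells, macrophages and neutrophils, had signals of 218 on the Chlorella array, 644 on the swimming normal food array and 411 on the nonswimming array, with a Chlorella over normal food ratio of -1.25 ± 0.20. It was lowest on the Chlorella array, as the proteases were, but highest with swimming on normal food. The kinase Syk, which the gamma chain recruits, had -1.54, the phospholipase Plcg2 -1.69, the adaptor Lcp2 -1.65, the exchange factor Vav1 -1.65, the adaptor Lat2 -1.44 and the kinase Btk -2.26 ± 0.34. With normexp Syk was -0.93, Lcp2 -0.49, Vav1 -0.59, Lat2 -0.23 and Btk -0.46, and the authors' deposited table gave -0.73 for Lat2. The adaptor Lat was at least 4.56-fold lower with Chlorella than with normal food and at least 5.33-fold higher with swimming than without.

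In swimming over nonswimming, 2 of 12 measured genes of this list were higher, Plcg2 (1.08) and Lcp2 (1.02), and none lower (median 0.69, against 5.14% of all genes higher and 1.08% lower). Both fell short of 2-fold with normexp (0.95 and 0.39) and with median centring (0.93 and 0.87). In Chlorella swimming over nonswimming, 2 of 12 were lower, Btk (-1.34 ± 0.35) and Lat2 (-1.07), and none higher (median -0.64, against 1.48% of all genes lower and 2.1% higher). With normexp Btk was -0.15, Lat2 -0.10 and the median -0.19, so neither stayed 2-fold apart. These genes serve in neutrophils, macrophages and lymphocytes too.

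Of the KIT pathway and transcription factor genes, 1 of 8 measured was lower with Chlorella than with normal food in swimming mice, Tal1 (-1.38, and -0.93 with normexp), a factor of blood and mast cell lineages, and none was higher (median 0.14, against 4.86% of all genes lower). Gata1 had signals of 5.82 on the Chlorella array, 75.5 on the swimming normal food array and 10.8 on the nonswimming array. It was at least 9.72-fold lower with Chlorella than with normal food, and 2.76 ± 0.30 higher on the log2 scale with swimming than without (0.88 with normexp). Gata1 is used by red cell precursors as well as mast cells, and Hdc shares its highest array.

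Mitf, which drives mast cell and pigment cell genes, had signals of 186 on the Chlorella array, 180 on the swimming normal food array and 415 on the nonswimming array. Its ratio was -1.25 for swimming over nonswimming and 0.36 for Chlorella over normal food, so its low arrays were the 2 from swimming mice. In the same comparisons Gata2 had ratios of -0.81 and 0.53, and Kitl, the KIT ligand made by stromal cells, had -0.40 and 0.15. In swimming over nonswimming 1 of 9 of this list was higher and 1 lower (median -0.13, against 5.14% of all genes higher and 1.08% lower). None of 8 was 2-fold apart in Chlorella swimming over nonswimming (median -0.26).

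Of the other surface receptors, 4 of 9 on the array were measured and none was 2-fold apart in any comparison. Il1rl1, the IL-33 receptor of mast cells, had signals of 48.7 on the Chlorella array, 87.2 on the swimming normal food array and 82.6 on the nonswimming array, with a Chlorella over normal food ratio of -0.53 and a swimming over nonswimming ratio of 0.03. Mrgprb1 and Mrgprb2, receptors found on connective tissue mast cells, were not well above background on any array.

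Of the enzymes that make leukotrienes and prostaglandins, 3 of 6 measured were lower with Chlorella than with normal food in swimming mice and none higher (median -1.03, against 4.86% of all genes lower and 1.4% higher). These were Ltc4s (-1.37, and -0.89 with normexp), Alox5 (-1.32) and its activating protein Alox5ap (-1.26), which act in one pathway. Ltc4s was also the 1 of 6 that was higher with swimming than without, against 5.14% of all genes. Its ratio there was 1.07, but 0.81 with normexp and 0.92 with median centring. None of the 6 was 2-fold apart in Chlorella swimming over nonswimming (median -0.71). Ptgs2, inducible cyclooxygenase, was at least 2.17-fold higher with swimming than without. Among the histamine receptors and breakdown enzymes, 1 of 3 measured, Hrh3 (-1.26), was lower with Chlorella than with normal food, against 4.86% of all genes. Hrh3 was also the 1 of 3 that was higher with swimming than without, against 5.14% of all genes. Its signals were dim, at 8.29 on the Chlorella array, 24.6 on the swimming normal food array and 9.68 on the nonswimming array. With normexp Hrh3 was -0.11 for Chlorella over normal food and 0.28 for swimming over nonswimming, so both gaps fell short of 2-fold.

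**Figure D4:**
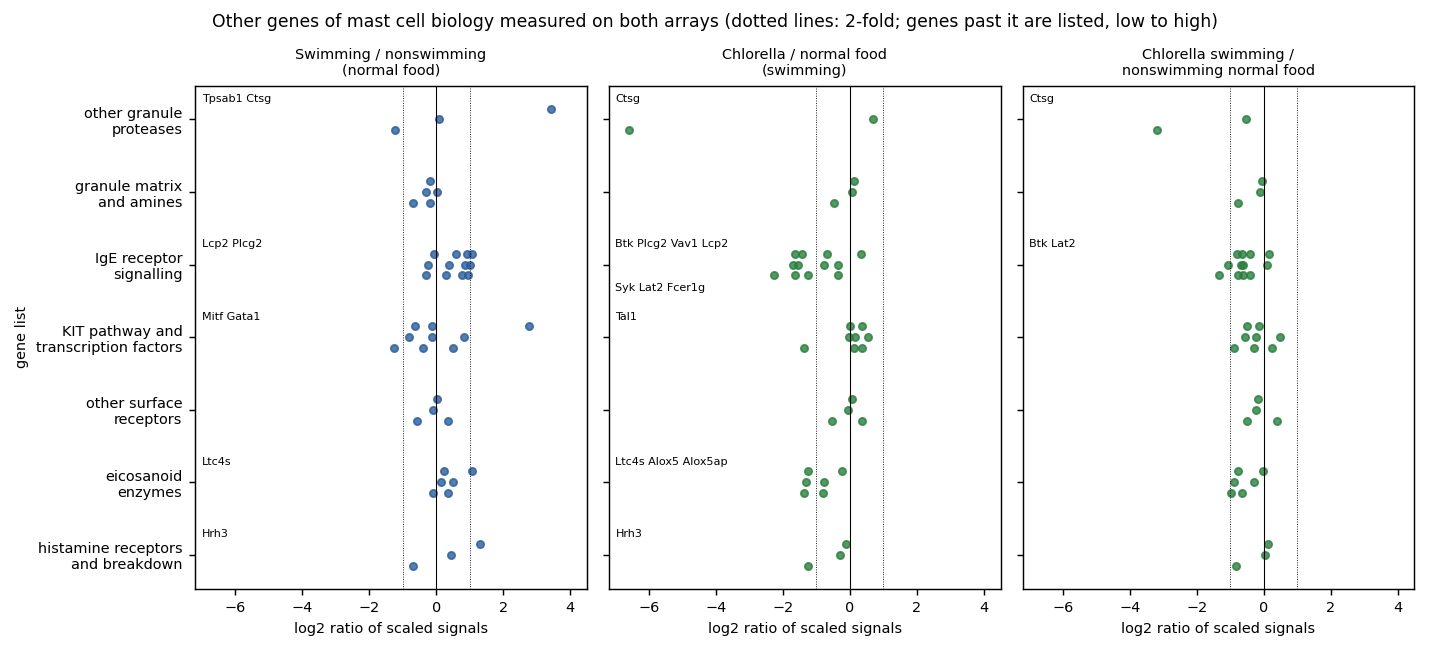
Log2 ratio of scaled signals (horizontal axes) for the measured genes of 7 lists of mast cell biology (rows) in the 3 comparisons, with dotted lines at 2-fold and the genes past them named. Most named genes lie left of the line for Chlorella over normal food, led by Ctsg at -6.61 and by 7 IgE receptor signalling genes.

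Markers of other cells that could carry these genes moved with some of them. Of 9 basophil markers, Ms4a2 and Cd200r3 were not well above background on any array, and the summed scaled signal was 2.47 on the Chlorella array, 3.23 on the swimming normal food array and 3.16 on the nonswimming array, in multiples of the 75th percentile. That list shares Cpa3, Fcer1a, Ms4a2 and Hdc with the members. Prss34, a basophil protease outside the member list, had signals of 7.55 on the Chlorella array, 67.0 on the swimming normal food array and 12.7 on the nonswimming array. Prss34 was highest on the swimming normal food array, as Hdc and Kit were. For Kit the gap to the Chlorella array was within the scanner limit. Gata2 and Fcer1a of the basophil list were not highest on the swimming normal food array. Gata2 had -0.81 for swimming over nonswimming and 0.53 for Chlorella over normal food. Fcer1a had -0.11 and 0.11 in the same comparisons. Over the measured basophil markers, 4 of 6 ratios were positive in swimming over nonswimming (median 0.19). For Chlorella over normal food the basophil median was 0.05. The part of basophils in the Hdc and Kit values was not tested. Kit also marks blood progenitors. Of 8 such markers, Myb had signals of 2.37 on the Chlorella array, 103 on the swimming normal food array and 9.99 on the nonswimming array, and Gfi1b 4.55, 131 and 18.3 on the same arrays, both highest where Kit was. Cd34, by far the brightest of the 8, was instead highest on the nonswimming array. Its signals were 6391, 7445 and 10411 on the Chlorella, swimming normal food and nonswimming arrays. Meis1 (0.35) and Hoxa9 (0.19) differed little in swimming over nonswimming, where 5 of 6 measured ratios were positive (median 0.65). The summed scaled signal of the 8, mostly that of Cd34, was 27.9 on the Chlorella array, 27.3 on the swimming normal food array and 37.4 on the nonswimming array. The part of progenitors in the Kit values was not tested.

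The neutrophil markers summed to 3.39 on the Chlorella array, 278 on the swimming normal food array and 16.4 on the nonswimming array. The eosinophil markers summed to 0.19, 21.9 and 1.19 on the same arrays, and the erythroid markers to 131, 444 and 128. All 3 sums were highest with swimming on normal food, as Hdc, Kit, Fcer1g and Gata1 were, and their part in those results was not tested. For Kit the gap to the Chlorella array was within the scanner limit (-0.28 ± 0.21, and -0.06 with normexp). Cma1, Mcpt4 and Tpsb2 were instead highest on the nonswimming array. Their gap to the swimming normal food array was past the scanner limit only for Tpsb2 and the dimmer Cma1 probe.

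Keratinocyte markers had that order of nonswimming over swimming. Their sum was 2.25 on the Chlorella array, 1.98 on the swimming normal food array and 8.03 on the nonswimming array. Of 6 measured, 5 were at least 2-fold lower with swimming than without on normal food (median -3.89), against 1.08% of all genes. Between the foods in swimming mice none of 4 measured was 2-fold apart (median -0.01). Of the others, Krt14 was at least 2.55-fold higher with Chlorella and Krt15 at least 1.38-fold lower. Skin holds connective tissue mast cells, and whether skin in the samples bears on the nonswimming values was not tested. Macrophage markers had a sum of 6.24 on the Chlorella array, 9.23 on the swimming normal food array and 10.4 on the nonswimming array. Like the chymases, they were lowest on the Chlorella array, with a median ratio of -0.56 for Chlorella over normal food in swimming mice. Adipocyte markers had a sum of 468 on the Chlorella array, 742 on the swimming normal food array and 386 on the nonswimming array. Of 6 measured, 2, Adipoq (-1.40) and Retn (-1.21), were at least 2-fold lower with Chlorella than with normal food (median -0.98), against 4.86% of all genes. Of 5 measured bone markers, 3 were lower in that comparison (median -1.34, against the same 4.86% of all genes), led by Mepe (-3.67) and Ibsp (-3.66). The bone sums were 0.84 on the Chlorella array, 3.73 on the swimming normal food array and 1.31 on the nonswimming array. In swimming over nonswimming, 3 of 4 measured bone markers and 4 of 6 adipocyte markers were at least 2-fold higher (medians 1.29 and 1.11). Among all genes 5.14% were. The member median for Chlorella over normal food was -0.92, and the part of these tissues in it was not tested. Fibroblast markers had a median of -0.04.

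Other settings moved the size of these ratios, and no member 2-fold apart changed sign. The filters on dim probes, the scanner error limit and the 1.5-fold threshold cannot change a single gene's ratio. Agreement among the 13 alternatives is therefore partly fixed in advance. Cma1 kept a ratio below -1 for Chlorella swimming over nonswimming in all 13 alternatives, from -1.49 to -1.14. The lowest value came from the authors' table, which holds its second probe. For Chlorella over normal food Cma1 ran from -1.08 (again the second probe in the authors' table) to -0.82, so that it falls on either side of 2-fold. Mcpt4 ran from -0.93 to -0.63 and Cpa3 from -1.25 to -0.84 in that comparison. Hdc, from -1.03 to -0.58, was at least 2-fold lower in 3 of 13. For Cpa3 the sign of swimming over nonswimming turned to -0.12 with median centring, so the 2 normal food arrays have no order for it. Fcer1a in Chlorella swimming over nonswimming, 0.0005 as reported, had the opposite sign in 5 of 13.

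**Figure D5:**
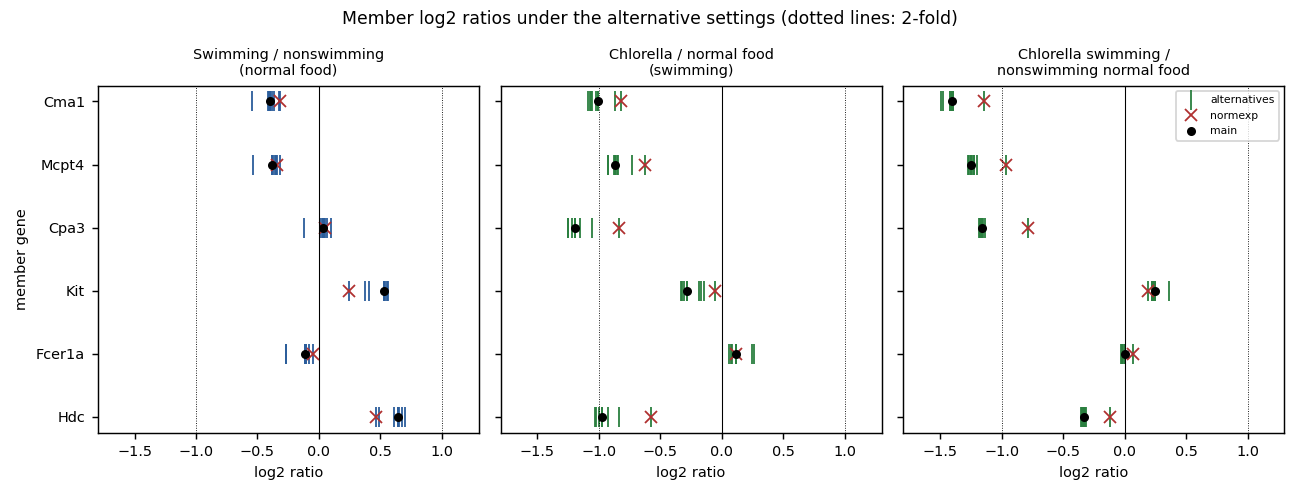
Log2 ratio (horizontal axes) of each measured member in the 3 comparisons, as reported (black points), under each alternative (bars) and with normexp background correction (crosses), with dotted lines at 2-fold. Cma1 stays past 2-fold lower for Chlorella swimming over nonswimming. For Chlorella over normal food Cma1, Cpa3 and Hdc fall on both sides of 2-fold lower, Mcpt4 stays short of it, and normexp gives the smallest ratios for those 4.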

How the data were processed

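The files are scanner output with 1 array per group. Their processed signal is an intensity in the single Cy3 channel, background-subtracted by Agilent Feature Extraction 9.5, which is named in the submitters' processing notes. The deposited series table holds the authors' log2 values of 13683 spots, and it was used as an alternative and for the authors' differences. No source used here gives the genome build of the probe coordinates.

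Controls were left out, as were 64 to 83 outlier-flagged spots per array, and repeated spots of a probe were averaged. Signals were divided by each array's 75th percentile (238 on the Chlorella array, 295 on the swimming normal food array, 286 on the nonswimming array) and put on the log2 scale, with the brightest probe standing for a gene. Where a probe was well above background on only 1 of 2 arrays, the ratio is a bound against the lowest signal well above background. These bounds leave out the scanner error, so with it the true gap could be smaller. All arrays are from 1 slide and 1 scan, so slide and scan do not differ between groups. The number of arrays limits precision.

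Probes were named by the files' gene names, and RefSeq (GRCm38.p6) accessions gave names for 22948 probes as an alternative. Members and lists were chosen with earlier results of these data known. All 8 members are named, and of the related lists every gene at least 2-fold apart and measured on both arrays, or with a bound of at least 2-fold, plus the 5 genes of nearest pattern; Other genes named from these lists, and the marker genes named, were chosen after their values were seen. The 13 alternatives covered scaling (quantile, cyclic loess, median, another percentile), normexp background correction with an offset of 50, filters on dim probes, probe averaging, the authors' table, a scanner error limit, a 1.5-fold threshold, naming and flagged spots. Calculations used Python 3.11.15, numpy 2.4.6, pandas 2.3.3, R 4.3.3 and limma 3.58.1, and the steps were tested on simulated data.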

Additional observations from a re-analysis of the deposited data

How the results depend on the processing

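With 1 pooled array per group these results have no replicate check, and leaving out an array ends a comparison. No paired analysis was possible because each group has 1 array. Of 13 alternatives, 1 (flagged spots kept) was chosen after seeing the data. Over the members' counts and medians, 109 values stayed close to those reported and 8 did not. Close meant within 1.5 times for a count and within the 95% scanner limit for a median. This tally overstates the agreement, because the 1.5-fold threshold and the scanner error limit cannot move a median. No member or named gene 2-fold apart changed sign. The count of members at least 2-fold lower with Chlorella than with normal food in swimming mice was 2. It became 1 with median centring (4.09% of all genes lower) and 0 with normexp (1.93%). When the whole 95% scanner interval had to lie beyond 2-fold it became 0 (2.82%), and at 1.5-fold it became 4 (9.16%). For Chlorella swimming over nonswimming the count of 3 became 1 with normexp (0.37% of all genes lower) and 1 with that scanner rule (0.36%). The member median of -0.75 in that comparison became -1.16 when the Tpsb2 probe was added. For swimming over nonswimming the count of members higher, 0, became 1 at 1.5-fold (Hdc), where 1475 of 15764 genes were higher. The member median ran from -0.97 to -0.60 for Chlorella over normal food. Median centring shifted the all-gene median by -0.15 (swimming over nonswimming) and by 0.13 (Chlorella over normal food). It moved the share of higher among all genes 2-fold apart to 70.5% in swimming over nonswimming, against 82.7% as reported, and to 33.2%, against 22.3%, in Chlorella over normal food. With no filter on dim probes these shares were 62.3% and 38.5%. Genes at least 2-fold lower with Chlorella than with normal food numbered 758 as reported, 302 with normexp and 2010 with no filter on dim probes. With the flagged Kit spot kept, Kit in Chlorella swimming over nonswimming was 0.36. Signal over background limits Fcer1a and Ms4a2: their raw means were 76.9 and 45.6 on the Chlorella array over local backgrounds of 47 and 43.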
